A study of Mus musculus with 8 samples.

Results

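The genes described here are 48 genes of cell division and DNA replication, chosen by name. They are wider than a core cell cycle list: 29 act in mitosis and 19 in DNA replication, in the repair tied to it or in entry into S phase. Of these, 45 had a probe set of their own among the 6986 genes measured, 26 of the 29 mitotic genes and 19 of the 19 replication genes. Ccnb1, Cenpm and Racgap1 were not analysed here. Each of the 45 genes was read by 1 probe set. Expression was measured on Affymetrix mouse gene arrays in sorted CD4+CD25+ lymphocytes, a fraction in which regulatory T cells are enriched, taken from para-aortic lymph nodes of pregnant mice at day 9.5 post coitus. One group was 4 arrays labelled Il10-/-, from mutant mice backcrossed through a C57BL/6 colony and given the antibiotic oxytetracycline at 2 mg/ml. The other was 4 arrays labelled Il10+/+, from C57BL/6 mice for which no antibiotic is stated, so genotype and antibiotic cannot be told apart. Each array held RNA of a pool of 2 to 4 mice. The mutation lies in Il10, the gene of the anti-inflammatory cytokine interleukin 10, and is carried by the whole animal and not by T cells alone.

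The Il10 probe set read 9.35, 8.65, 9.42 and 9.25 in the arrays labelled Il10-/- and 8.27, 8.51, 8.14 and 7.50 in those labelled Il10+/+, a log2 difference of 1.06 (SE 0.22; limma's adjusted p = 0.405). The groups did not overlap, and the signal was the higher in the mutant label. No label or file used here names the exons that the mutation removes. This probe set therefore does not check the labels, and Il10-/- and Il10+/+ are used below as the labels give them.

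Before a cell divides it licenses replication origins, switches on E2F-driven genes for DNA synthesis, and copies its chromosomes in S phase. Mitotic genes follow later: cyclin-dependent kinase 1 drives entry into mitosis, kinetochores tie chromosomes to the spindle, and separase and the cytokinesis machinery part the daughter cells. Regulatory T cells of lymph nodes divide when they meet antigen, and transcripts of this programme are commonly read as a measure of how many cells of a sample are cycling. In a sorted bulk sample, fewer cycling cells and less of these transcripts per cycling cell cannot be told apart.

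The measured T cell markers (Cd28, Icos, Ptprc and Themis) had a mean log2 value of 10.91 to 11.03 in the 8 arrays, and the 5 measured of 12 regulatory T cell markers 9.35 to 10.04. Of these, Ctla4, Ikzf2 and Ikzf4 averaged 11.27, 11.44 and 9.16 and had slightly negative differences, whereas Socs2, at 8.27, differed by 0.56, and the fifth was Il10. Foxp3, Il2ra and Cd4 were not analysed here, so the share of regulatory T cells in each pool was not measured. A pair of arrays, replicate 2 of Il10-/- and replicate 4 of Il10+/+, had narrower distributions, with interquartile ranges of 2.15 and 2.17 against 2.32 to 2.58 in the other arrays. Results are therefore also given without them. The widest range, 2.58, was that of Il10+/+ replicate 2. Of the 45 genes, 41 had a mean over the 8 arrays at or above 7.07, the 95th percentile of the 230 olfactory receptor genes in the table, taken here as the level of dim genes. The other 4 were Depdc1b, Gas2l3, Brca1 and E2f7.

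The promoters of the 2 classes differ in short motifs and are shown first. Any link between these motifs and the movement of the genes between pools was not tested. RefSeq windows of build GRCm38.p6, from 250 bases before to 50 bases after the annotated start, were found for 38 of the 45 measured genes, 5 of which had more than 1 window. Aurkb, Pbk, Dlgap5, Cdca2, Depdc1b, Gmnn and Esco2 had none. Motifs were searched on both strands. The cell cycle homology region (CHR) was taken as TTTGAA, or in its other form as TTCGAA, and the CCAAT box as CCAAT. E2F words were TTCCCGC, its relative TTGGCGC, a further word TTCGCGC and lastly TTGCCGC. On the reverse strand, the letters of the CCAAT box can overlap the E2F word TTGGCGC. The CHR was in 13 of 24 windows of mitotic genes (54.2%) and in 3 of 20 of replication genes (15.0%), against 19.2% of all 32851 windows. For E2F words the order was the other way, with 5 of 24 mitotic windows (20.8%) and 14 of 20 replication windows (70%) against 9.57% of all windows. CCAAT boxes were in 83.3% of mitotic, 60.0% of replication and 37.4% of all windows. In the 6455 windows of tested genes the shares were 16.5% for the CHR, 12% for E2F words and 36.6% for CCAAT boxes. Every window was counted, also where a gene had several. A match is a description of letters, not of a bound site.

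The windows below are those of the 2 mitotic genes with the smallest p-values, of the mitotic gene with the smallest difference, and of 3 replication genes, 2 that were higher in Il10-/- without overlap and the gene with the lowest difference. Capitals mark matches to the motifs, and all else is in lower case.
Top2a (chr11:99024140-99024439, minus strand): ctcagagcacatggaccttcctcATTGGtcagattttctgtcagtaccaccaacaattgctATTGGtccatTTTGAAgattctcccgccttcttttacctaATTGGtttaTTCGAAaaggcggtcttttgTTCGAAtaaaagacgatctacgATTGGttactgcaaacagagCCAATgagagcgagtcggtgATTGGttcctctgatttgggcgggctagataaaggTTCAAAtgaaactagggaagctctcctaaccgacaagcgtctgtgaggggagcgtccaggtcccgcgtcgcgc
Cdkn3 (chr14:46760291-46760590, plus strand): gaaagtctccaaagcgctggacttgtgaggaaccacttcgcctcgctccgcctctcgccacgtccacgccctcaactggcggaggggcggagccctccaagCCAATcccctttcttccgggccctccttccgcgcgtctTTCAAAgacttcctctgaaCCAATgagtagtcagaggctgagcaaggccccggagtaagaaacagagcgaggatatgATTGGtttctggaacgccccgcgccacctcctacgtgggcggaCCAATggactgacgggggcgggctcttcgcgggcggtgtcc
Troap (chr15:99074723-99075022, plus strand): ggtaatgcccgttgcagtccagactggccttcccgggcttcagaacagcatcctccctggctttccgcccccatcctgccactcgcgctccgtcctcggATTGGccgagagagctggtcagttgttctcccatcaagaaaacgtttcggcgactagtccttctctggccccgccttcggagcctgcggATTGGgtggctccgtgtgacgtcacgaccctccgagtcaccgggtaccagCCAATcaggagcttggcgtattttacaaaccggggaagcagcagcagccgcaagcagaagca
Fbxo5 (chr10:5805416-5805715, minus strand): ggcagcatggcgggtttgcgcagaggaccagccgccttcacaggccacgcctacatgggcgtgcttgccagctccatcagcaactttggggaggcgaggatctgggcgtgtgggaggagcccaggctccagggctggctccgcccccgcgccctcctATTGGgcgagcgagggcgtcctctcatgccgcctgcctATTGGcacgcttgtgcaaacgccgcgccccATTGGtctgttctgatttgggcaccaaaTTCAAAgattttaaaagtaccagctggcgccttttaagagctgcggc
E2f7 (chr10:110745189-110745488, plus strand): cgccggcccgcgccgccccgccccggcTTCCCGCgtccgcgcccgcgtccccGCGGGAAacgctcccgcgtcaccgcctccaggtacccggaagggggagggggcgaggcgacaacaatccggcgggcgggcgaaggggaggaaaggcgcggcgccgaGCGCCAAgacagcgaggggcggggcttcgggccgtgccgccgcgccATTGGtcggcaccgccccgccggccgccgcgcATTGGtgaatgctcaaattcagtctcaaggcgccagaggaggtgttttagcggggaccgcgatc
Ube2t (chr1:134962315-134962614, plus strand): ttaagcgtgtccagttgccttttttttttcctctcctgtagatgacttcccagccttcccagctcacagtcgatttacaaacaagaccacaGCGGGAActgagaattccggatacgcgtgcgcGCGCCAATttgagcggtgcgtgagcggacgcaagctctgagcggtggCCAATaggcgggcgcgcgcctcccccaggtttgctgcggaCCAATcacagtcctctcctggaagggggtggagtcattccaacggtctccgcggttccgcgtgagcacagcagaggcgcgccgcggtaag
Top2a held 6 CCAAT boxes and 4 CHR matches, the nearest CHR starting 23 bases before the start. Cdkn3 held 4 CCAAT boxes and 1 CHR match, 111 bases before the start, whereas Troap held 3 CCAAT boxes and neither a CHR match nor an E2F word. Fbxo5, grouped with replication by its role, held the CHR at base 4 after the start with 3 CCAAT boxes and no E2F word. E2f7 held 3 E2F words and 2 CCAAT boxes, and Ube2t 2 E2F words and 3 CCAAT boxes, 1 of which overlapped an E2F word.

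All 26 mitotic genes measured had a higher mean in the arrays labelled Il10-/- than in those labelled Il10+/+, and so had 14 of 19 replication genes. The median log2 difference, Il10-/- minus Il10+/+, was 0.37 over the mitotic genes and 0.29 over the replication genes, against 0.00 over all 6986 genes. Differences ran from 0.07 (Troap) to 0.77 (Cenpk) in the mitotic class and from -0.30 (Ube2t) to 0.57 (Esco2) in the replication class. No gene of either class passed the test over all genes (limma, Benjamini-Hochberg adjusted p of at least 0.624), where 0.0286% of all genes passed as higher, and no gene as lower (0%). At an unadjusted p under 0.05, 12 of the 45 genes were higher, against 3.19% of all genes, and 0 were lower, against 1.59%. A log2 difference of at least 0.3 was reached by 17 mitotic and 9 replication genes, against 4.65% of all genes. One of at least 0.5 was reached by 10 of the 45, against 1.33%, and a positive one by 50.8% of all genes. Among the 3442 genes at or above the dim level, 4.59% were higher at an unadjusted p under 0.05. Of the same 3442 genes, 6.57% differed by at least 0.3 and 52.8% were positive. The 45 genes were chosen with earlier results of these arrays known and varied together between pools, so these counts are a description and not a test.

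**Figure D1:**
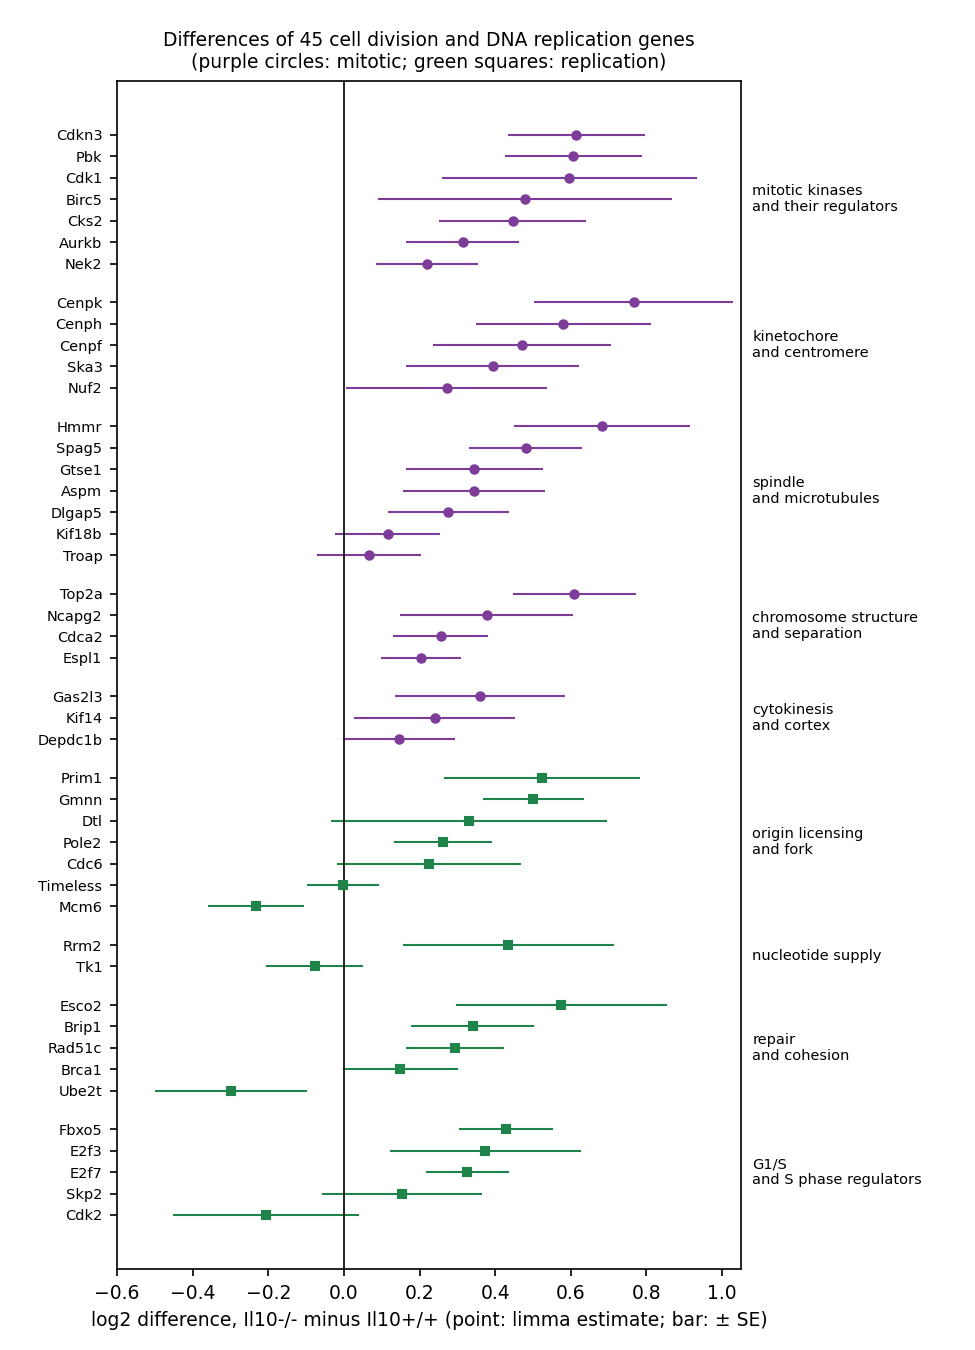
Log2 difference, Il10-/- minus Il10+/+, of each of the 45 measured genes (point, limma estimate; bar, ± SE; n = 4 arrays per group), grouped by role, with mitotic genes as circles and replication genes as squares. All 26 mitotic points lie to the right of 0, as do 14 of 19 replication points, and Timeless, Tk1, Mcm6, Cdk2 and Ube2t lie to its left.

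Among the mitotic kinases and their regulators, all 7 measured genes were higher in mean, with a median of 0.48. Cdkn3, a phosphatase that acts on cyclin-dependent kinases, read 8.54, 9.22, 9.02 and 9.37 in Il10-/- replicates 1 to 4 and 8.31, 8.74, 8.43 and 8.20 in Il10+/+ replicates 1 to 4. Of the mutant pools, replicates 2 to 4 lay above every Il10+/+ array and replicate 1 lay within their range. Its difference was 0.61 (SE 0.18), or 1.53-fold, with limma's adjusted p at 0.735 and an exact two-sided permutation p of 0.0571. Pbk, a kinase active in mitotic cells, read 8.40, 8.60, 8.43 and 9.12 against 7.79, 8.41, 7.88 and 8.04. Here too 3 of 4 mutant pools lay above every Il10+/+ array, and the difference was 0.61 (SE 0.18; limma's adjusted p = 0.742, exact permutation p = 0.0571). Cks2, a small subunit that binds cyclin-dependent kinases, read 9.87, 10.17, 10.01 and 10.13 against 9.21, 10.06, 9.90 and 9.22. The mutant pools were alike, and the Il10+/+ pools split into replicates 2 and 3 at the mutant level and replicates 1 and 4 below it. The difference of Cks2 was 0.45 (SE 0.19; limma's adjusted p = 0.999, exact permutation p = 0.143).

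Cdk1, the kinase that drives mitotic entry, differed by 0.60 (SE 0.34). Its lowest value, 7.83, was in Il10+/+ replicate 4, and without that pool the difference was 0.34. Birc5, the survivin subunit of the chromosomal passenger complex, differed by 0.48 (SE 0.39), and by 0.22 without Il10+/+ replicate 4. Its highest value, 9.05, was in Il10+/+ replicate 2. Aurkb, the kinase of the same complex, differed by 0.31 (SE 0.15), and Nek2, a centrosomal kinase, by 0.22 (SE 0.14), or 0.12 without Il10+/+ replicate 1.

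The 5 measured kinetochore and centromere genes were all higher in mean, with a median of 0.47. Cenpk, a subunit of the constitutive centromere network, gave the largest difference of all 45 genes. It read 8.02, 8.76, 8.42 and 8.34 in Il10-/- replicates 1 to 4 and 7.03, 8.03, 7.20 and 8.22 in Il10+/+. Replicates 1 and 3 of the Il10+/+ pools were low, and replicates 2 and 4 overlapped the lowest mutant pool. The difference was 0.77 (SE 0.26), or 1.70-fold, with an exact permutation p of 0.0857 and limma's adjusted p at 0.777. Cenph, of the same network, read 8.26, 8.79, 9.19 and 8.59 against 8.10, 8.43, 7.53 and 8.45. Its difference was 0.58 (SE 0.23; limma's adjusted p = 0.926, exact permutation p = 0.114), and 0.38 without Il10+/+ replicate 3, the pool that read lowest. Cenpf, a large protein of the outer kinetochore, differed by 0.47, Ska3, of the complex that couples kinetochores to microtubules, by 0.39, and Nuf2, of the Ndc80 complex, by 0.27. Without Il10+/+ replicate 4 the difference of Nuf2 was 0.02 and that of Ska3 0.17, and without Il10+/+ replicate 3 that of Cenpf was 0.24.

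Spindle and microtubule genes had a median of 0.34 over 7 genes. Hmmr, a microtubule-binding protein of the spindle, read 7.69, 8.01, 8.20 and 8.30 in Il10-/- and 7.84, 7.76, 7.09 and 6.79 in Il10+/+. Replicates 3 and 4 of the Il10+/+ pools were low, and the difference was 0.68 (SE 0.23; limma's adjusted p = 0.777, exact permutation p = 0.0857). Spag5, also known as astrin, which tethers kinetochores to spindle fibres, read 7.73, 8.01, 8.13 and 7.85 against 7.08, 7.78, 7.49 and 7.45. Of the mutant pools only replicate 1 did not lie above every Il10+/+ array, and the difference was 0.48 (SE 0.15; limma's adjusted p = 0.742, exact permutation p = 0.0571). Aspm, a spindle pole protein, and Gtse1, a regulator of microtubule stability, each differed by 0.34, and Dlgap5, which stabilises kinetochore fibres, by 0.28. Without Il10+/+ replicate 3 the differences of Gtse1 and Dlgap5 were both 0.15, and without Il10+/+ replicate 4 that of Aspm was 0.20.

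Kif18b, a kinesin that shortens astral microtubules, and Troap, a spindle-associated protein, showed the smallest differences of the mitotic class. Kif18b read 7.38, 7.34, 7.48 and 7.85 against 7.14, 7.44, 7.54 and 7.47, a difference of 0.12 (SE 0.14, 95% interval -0.19 to 0.42; exact permutation p = 0.514). Troap read 7.56, 7.81, 7.66 and 7.21 against 7.29, 7.57, 7.57 and 7.55, a difference of 0.07 (SE 0.14, 95% interval -0.24 to 0.37; exact permutation p = 0.657). For both, the groups overlapped in part. The highest Kif18b value was in Il10-/- replicate 4, and without that array its difference was 0.0025. The lowest and the highest Troap value were both in Il10-/- arrays. The sign of Troap also turned when Il10-/- replicate 2 was left out (-0.02).

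Of the genes for chromosome structure and separation, Top2a, the topoisomerase that untangles sister chromatids, had the smallest unadjusted limma p of all 45 genes, 0.00332. It read 10.20, 10.71, 10.54 and 10.82 in Il10-/- and 9.90, 10.31, 9.71 and 9.91 in Il10+/+. Only Il10+/+ replicate 2 reached into the mutant range, where it lay above Il10-/- replicate 1. The difference was 0.61 (SE 0.16), or 1.53-fold, with limma's adjusted p at 0.624 and an exact permutation p of 0.0571. Ncapg2, a condensin subunit, differed by 0.38 (0.23 without Il10+/+ replicate 4), and Cdca2, which brings a phosphatase to mitotic chromatin, by 0.26. Espl1, the protease separase that cuts cohesin at anaphase, differed by 0.20 (SE 0.11). It was the 1 mitotic gene whose groups did not overlap, with 7.43 to 7.54 in Il10-/- and 7.03 to 7.39 in Il10+/+. Its difference was 0.12 without Il10+/+ replicate 1, the lowest pool. The 3 cytokinesis and cortex genes were Gas2l3 (0.36), Kif14 (0.24) and Depdc1b (0.15), and 0 of them were at an unadjusted p under 0.05. Leaving out 1 array took Kif14 to 0.05 (Il10+/+ replicate 3), Depdc1b to 0.02 (Il10-/- replicate 4) and Gas2l3 to 0.21 (Il10+/+ replicate 1).

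In the replication class, the genes of origin licensing and the replication fork were split. Gmnn, which encodes geminin, the inhibitor that keeps origins from firing again in one cycle, read 9.59, 10.09, 9.88 and 9.91 in Il10-/- and 9.31, 9.63, 9.19 and 9.34 in Il10+/+. All mutant pools but replicate 1 lay above every Il10+/+ array, and the difference was 0.50 (SE 0.13; limma's adjusted p = 0.624, exact permutation p = 0.0571). Prim1, the catalytic primase subunit, differed by 0.52 (SE 0.26), and by 0.31 without Il10+/+ replicate 3. Pole2, a subunit of the leading strand polymerase, differed by 0.26, Dtl, which directs the licensing factor Cdt1 to degradation, by 0.33, and the licensing factor Cdc6 by 0.22, but by 0.03 without Il10+/+ replicate 4. Dtl had the widest spread, from 6.24 to 8.26 within the Il10+/+ pools, and its difference was 0.01 without Il10+/+ replicate 1.

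Mcm6, a subunit of the replicative helicase and the brightest of its role, went the other way. It read 10.10, 10.14, 10.28 and 10.39 in Il10-/- and 10.31, 10.75, 10.49 and 10.28 in Il10+/+, a difference of -0.23 (SE 0.13; exact permutation p = 0.114), and of -0.13 without Il10+/+ replicate 2. Timeless, a fork protection protein, read 7.34, 7.43, 7.28 and 7.42 against 7.30, 7.34, 7.33 and 7.51. The difference was -0.0016 (SE 0.095), with a 95% interval of -0.21 to 0.21 (exact permutation p = 0.971). Its sign therefore carries no information, and it turned under several settings.

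Of the nucleotide supply genes, Rrm2, the regulated subunit of ribonucleotide reductase, differed by 0.43 (SE 0.28), with its highest value, 9.35, in Il10+/+ replicate 2. Tk1, thymidine kinase, read 8.30, 8.11, 8.33 and 8.40 against 8.21, 8.58, 8.53 and 8.13. Il10+/+ replicates 2 and 3 lay above every mutant pool, and Il10-/- replicate 2 lay below every Il10+/+ pool. The groups overlapped between these, with a difference of -0.08 (SE 0.13, 95% interval -0.36 to 0.21; exact permutation p = 0.514) and of -0.0044 without Il10+/+ replicate 2.

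Repair and cohesion genes had a median of 0.29 over 5 genes. Brip1, a helicase that works with Brca1, read 7.36, 7.71, 7.43 and 7.78 in Il10-/- and 7.47, 7.53, 6.93 and 6.99 in Il10+/+. Il10+/+ replicates 3 and 4 were low, and the difference was 0.34 (SE 0.16; limma's adjusted p = 0.999, exact permutation p = 0.171). Rad51c, a recombination protein, read 7.09, 7.54, 7.35 and 7.58 against 7.02, 7.25, 7.16 and 6.95. Of its mutant pools, replicates 2 to 4 lay above all Il10+/+ arrays (difference 0.29, SE 0.13; limma's adjusted p = 0.999, exact permutation p = 0.0857). Esco2, which acetylates cohesin during replication, differed by 0.57 (SE 0.28), and by 0.33 without Il10+/+ replicate 4, whereas Brca1 differed by 0.15, and by 0.04 without Il10+/+ replicate 1. Ube2t, the ubiquitin-conjugating enzyme of the Fanconi anaemia pathway, had the lowest difference of all, -0.30 (SE 0.20; exact permutation p = 0.257). It read 7.13, 6.99, 7.51 and 7.11 in Il10-/- and 6.93, 7.71, 7.93 and 7.36 in Il10+/+, so the groups overlapped. Its difference was -0.15 without Il10+/+ replicate 3 and -0.48 without Il10+/+ replicate 1.

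The regulators of S phase entry held both replication genes without overlap. Fbxo5, the inhibitor of the anaphase-promoting complex also called Emi1, read 9.31, 9.39, 9.55 and 9.52 in Il10-/- and 8.82, 9.31, 9.02 and 8.91 in Il10+/+. The lowest mutant pool lay only just above Il10+/+ replicate 2, and the difference was 0.43 (SE 0.12; limma's adjusted p = 0.732, exact permutation p = 0.0286, the smallest the design allows). E2f7, an atypical E2F that represses replication genes, read 7.06, 7.27, 7.04 and 7.38 against 6.92, 6.94, 6.85 and 6.75. Its difference was 0.33 (SE 0.11; limma's adjusted p = 0.777, exact permutation p = 0.0286), at a mean under the dim level of 7.07. In all, the groups did not overlap for 3 of the 45 genes in this direction (Espl1, Fbxo5 and E2f7), against 1.83% of all genes. E2f3, an activating E2F, differed by 0.37, Skp2, which targets inhibitors of cyclin-dependent kinases for degradation, by 0.15, and Cdk2, the kinase of S phase, by -0.21 (SE 0.25). Without Il10+/+ replicate 4 the difference of E2f3 was 0.10 and that of Skp2 0.01, and without Il10-/- replicate 2 that of Cdk2 was -0.0065.

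**Figure D2:**
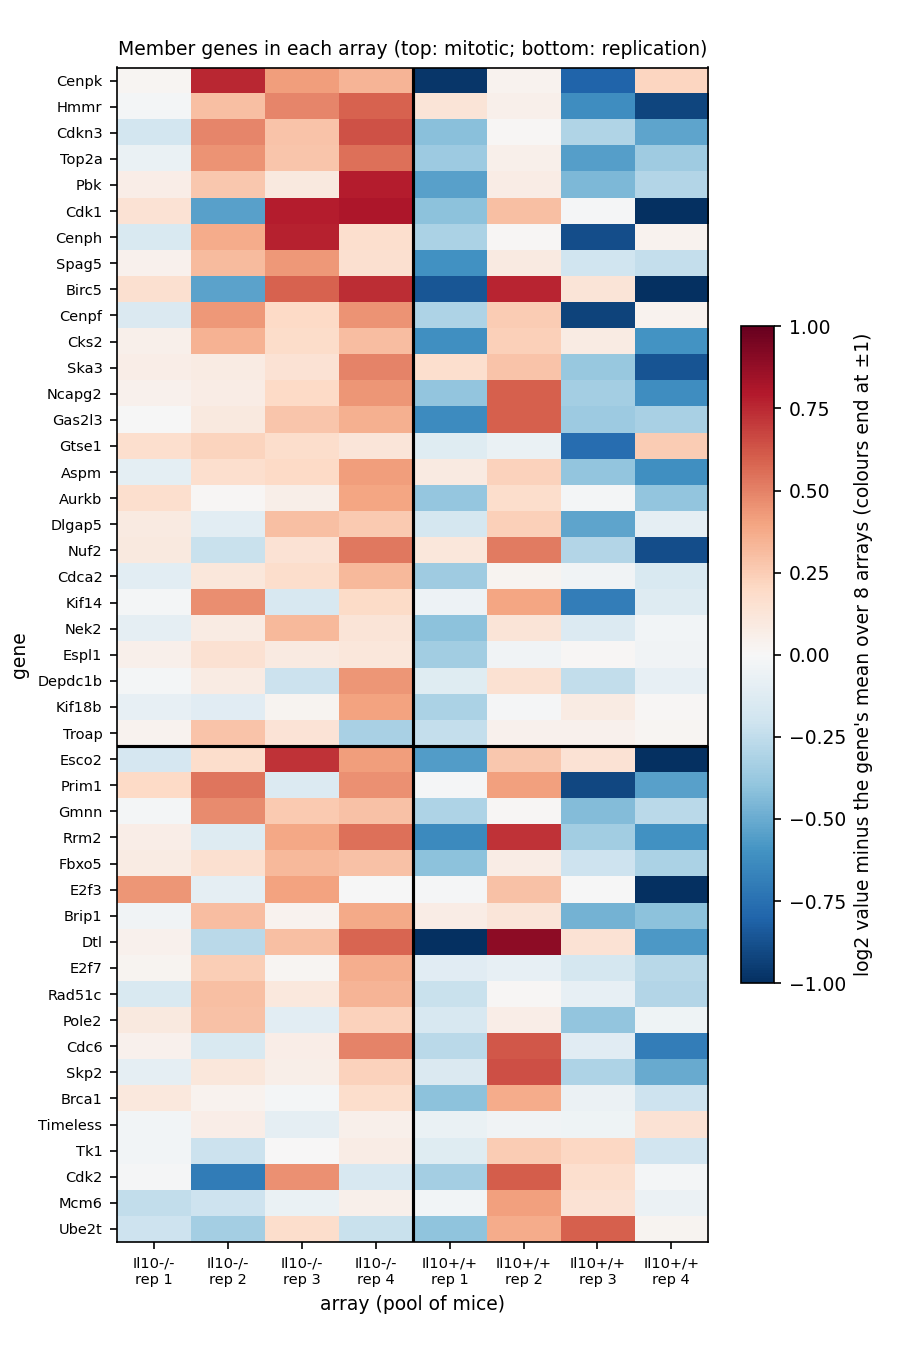
Log2 value of each gene (rows) in each array (columns) minus that gene's mean over the 8 arrays, with mitotic genes above the horizontal line and replication genes under it, and Il10-/- arrays left of the vertical line. Il10+/+ replicate 2 is red for most genes, like Il10-/- replicates 3 and 4, whereas Il10+/+ replicates 1, 3 and 4 are mostly blue.

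The genes differed between pools of a group as well as between group means, and they did not separate the groups. The score of a pool was the mean over a class of each gene's log2 value minus its mean over the 8 arrays. Mitotic scores were 0.01, 0.16, 0.25 and 0.38 in Il10-/- replicates 1 to 4 and -0.33, 0.20, -0.33 and -0.33 in Il10+/+ replicates 1 to 4. Thus 3 Il10+/+ pools shared 1 low level, and Il10+/+ replicate 2 lay within the mutant range. Replication scores were 0.01, 0.03, 0.15 and 0.24 against -0.28, 0.32, -0.11 and -0.36, and here Il10+/+ replicate 2 was the highest of all 8 pools. That pool lay above the gene's own mean in 23 of 26 mitotic and 17 of 19 replication genes, and Il10+/+ replicate 1 did so in 4 and 1. The lowest of the 8 arrays was an Il10+/+ array for 25 of 26 mitotic and 15 of 19 replication genes. The highest was Il10-/- replicate 4 for 16 genes and Il10+/+ replicate 2 for 11 genes.

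**Figure D3:**
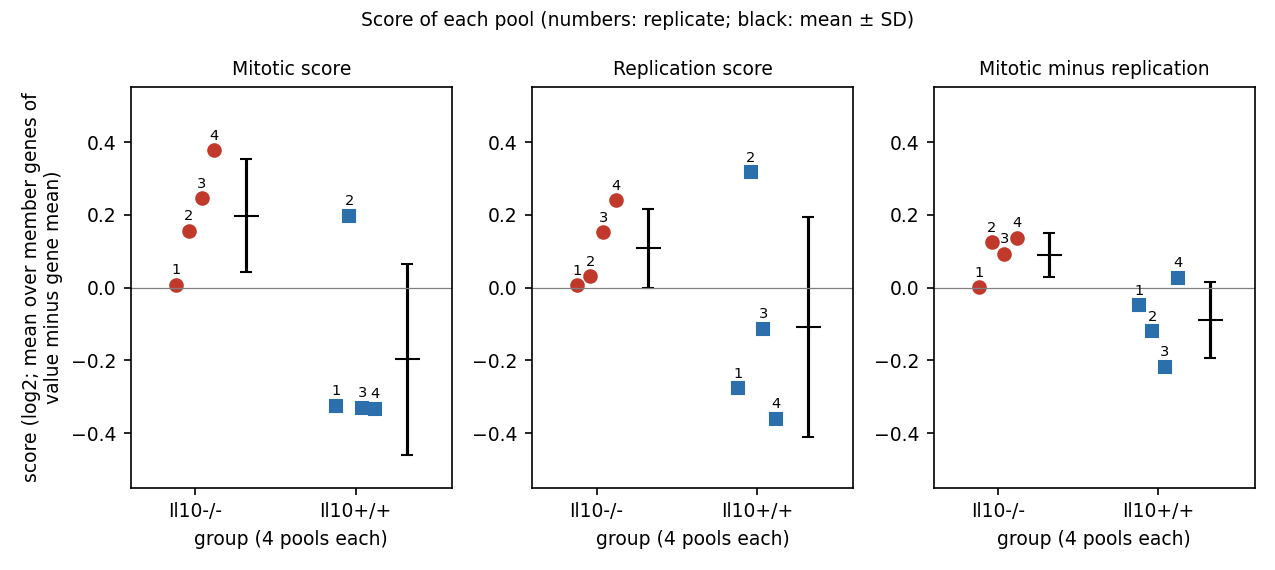
Mitotic score, replication score and their difference in each pool (circles, Il10-/-; squares, Il10+/+; numbers, replicate; black, mean ± SD, n = 4 pools per group), on the log2 scale. Il10+/+ replicate 2 lies at 0.20 and 0.32 on the first pair of panels, apart from the other Il10+/+ pools, but with them on the third panel.

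The mean mitotic score was 0.20 ± 0.16 in Il10-/- and -0.20 ± 0.26 in Il10+/+, and the mean replication score 0.11 ± 0.11 and -0.11 ± 0.30 (SD, n = 4 each). No test was made on scores, since their genes were chosen with results known. Within groups, genes of both classes varied together. The median Pearson correlation of 2 genes' deviations from their group means over the 8 arrays was 0.46 between mitotic genes, 0.51 between replication genes and 0.46 between a mitotic and a replication gene, against 0.03 over all pairs of genes tested. These correlations share the same 8 arrays and are given as a description. Of the 6986 genes in all pairs, 3442 had a mean at or above the dim level, against 41 of the 45 genes. Pairs matched for level were not compared.

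Mitotic and replication genes were set against each other within each pool. The mitotic score minus the replication score was 0.00, 0.12, 0.09 and 0.14 in Il10-/- replicates 1 to 4 and -0.05, -0.12, -0.22 and 0.03 in Il10+/+ replicates 1 to 4. Only Il10+/+ replicate 4 and Il10-/- replicate 1 kept the groups from separating. The mean was 0.09 ± 0.06 in Il10-/- and -0.09 ± 0.10 in Il10+/+ (SD, n = 4 each), a difference of 0.18 (SE 0.06). In Il10+/+ replicate 2, the pool with the high scores, replication genes were high by more than mitotic genes. The difference of 0.18 was 0.21 without Il10-/- replicate 2 and Il10+/+ replicate 4, and 0.14 to 0.22 with any 1 array left out. Since the genes were chosen with results known, it is a description and not a test. Among the further cell cycle genes given below, mitotic and replication genes lay closer together. Their mean differences were 0.19 and 0.17, and their medians 0.21 and 0.16.

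For 29 of the 45 genes, leaving out some 1 array brought the difference more than 1.5 times nearer to 0 or turned its sign, and for 16 genes none did so. The array concerned was Il10+/+ replicate 4 for 11 of the 29, Il10+/+ replicate 3 for 7 and Il10+/+ replicate 1 for 5. Of the counts, those without Il10+/+ replicate 2 changed most. Without it, 31 of the 45 genes were higher at an unadjusted p under 0.05, against 4.37% of all genes, and the groups of 14 genes did not overlap, against 3.91%. The medians were then 0.57 over mitotic and 0.39 over replication genes, and the smallest adjusted p of limma was 0.261, so that no gene passed. With Il10-/- replicate 1 left out, 13 genes did not overlap, against 3.74% of all genes, and 16 were higher at an unadjusted p under 0.05, against 3.22%. Without Il10-/- replicate 2 and Il10+/+ replicate 4, the arrays with the narrower distributions, the medians were 0.31 and 0.19, 25 of 26 mitotic and 15 of 19 replication genes were positive, and 10 genes were higher at an unadjusted p under 0.05, against 3.28% of all genes. In these 6 arrays 4 genes did not overlap, against 5.78%. The direction of 25 of 26 mitotic genes (all but Troap) and 18 of 19 replication genes (all but Timeless) was that of all 8 arrays in every case where 1 array was left out.

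**Figure D4:**
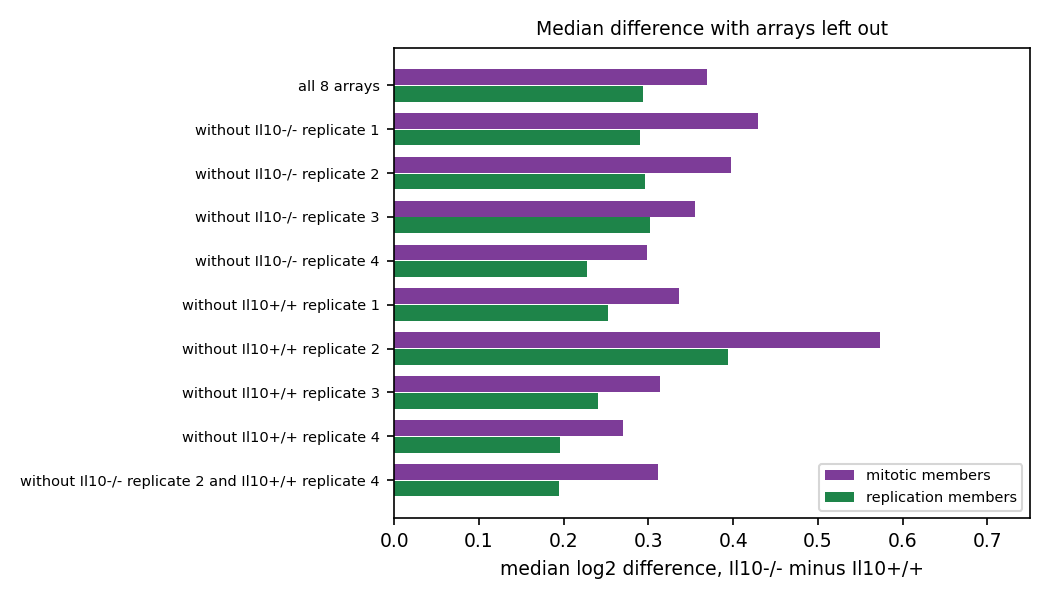
Median log2 difference, Il10-/- minus Il10+/+, over the 26 mitotic (purple) and 19 replication (green) genes, with all 8 arrays and with the named arrays left out. The mitotic median is the higher of the pair in every case, from 0.27 without Il10+/+ replicate 4 to 0.57 without Il10+/+ replicate 2.

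Other genes of the cell cycle were higher by less. They were listed by role, with earlier results of these data known and with the genes above left out. The list is therefore not an independent check on those genes. Of 232 such genes 49 were measured, with a median difference of 0.15 and a positive difference in 35 (71.4%, against 50.8% of all genes). The 24 further mitotic genes had a median of 0.21 and 19 positive differences, the 15 further replication genes 0.16 and 12, and the 10 genes of cell cycle entry and its inhibitors -0.04 and 4. None passed the test over all genes by limma (0 of 49), and at an unadjusted p under 0.05 there were 8 higher (16.3%, against 3.19% of all genes) and 2 lower (4.08%, against 1.59%).

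The 8 higher genes included the kinetochore genes Cenpl (0.43), Cenpw (0.47) and Ska2 (0.40), Sgo2a (0.37), which protects centromeric cohesion, and the ubiquitin ligase gene G2e3 (0.26). The others were Dscc1 (0.61), of a clamp loader that aids cohesion, Gen1 (0.49), a nuclease that cuts recombination junctions, and Ccng1 (0.30), a cyclin induced by p53. The groups did not overlap for G2e3, Gen1 and Ccng1 (3 of the 49 genes, 6.12%, against 1.83% of all genes). Prr11 had the largest difference, 0.82, but an SE of 0.42, with 6.01 to 8.35 in the Il10+/+ pools.

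Both lower genes act in the metaphase to anaphase transition. Pttg1, which encodes securin, the inhibitor of separase, read 9.42, 9.20, 9.46 and 9.48 in Il10-/- and 9.66, 9.76, 9.69 and 9.54 in Il10+/+. Its groups did not overlap, in the direction opposite to that of Espl1, separase itself, with a difference of -0.27 (SE 0.10; limma's adjusted p = 0.873, exact permutation p = 0.0286). Anapc11, the catalytic subunit of the anaphase-promoting complex, also differed by -0.27 (SE 0.11) without overlap. Pttg1 and Anapc11 were the 2 of the 49 genes that were lower without overlap, against 1.09% of all genes. In the replication list the lowest were Rpa1 (-0.14), of the complex that coats single-stranded DNA, and Dtymk (-0.09), thymidylate kinase. Of the entry and inhibitor genes, Btg2 (-0.35) and Btg1 (-0.22), which restrain proliferation, were lowest, Lin52 (0.45, SE 0.46) was highest, and the licensing partner Mcm3 of the replication list was at 0.06.

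Other cell types that divide in a lymph node were followed by their markers. Of 17 B cell markers 7 were measured, of which 6 had a positive difference and 0 were at an unadjusted p under 0.05. Their mean level was 6.94 to 7.33 in Il10-/- and 6.89 to 7.06 in Il10+/+. Of 10 germinal centre B cell and plasma cell markers 4 were measured, 3 with a positive difference and 1 (Rgs13) at an unadjusted p under 0.05, at a mean level of 6.99 to 7.43 in Il10-/- and 6.85 to 7.05 in Il10+/+. Among them Rgs13, a signalling regulator of germinal centre B cells, read 5.10, 5.94, 7.36 and 5.89 in Il10-/- and 5.11 to 5.35 in Il10+/+, with its highest value in Il10-/- replicate 3. The mean of Rgs13 over the 8 arrays, 5.63, lay under the dim level, and the other 3 of this list lay above it. In Il10+/+ replicate 2, where the cell division genes were high, the mean level was 7.03 for the B cell list and 7.05 for the germinal centre and plasma cell list. The latter was the highest of the 4 Il10+/+ pools, though Rgs13 read 5.14 there. Prdm1 read 8.61 in that pool, against 8.03 to 8.41 in the other Il10+/+ pools. Sdc1 read 7.25 there, against 7.15 to 7.38, and Derl3 7.21, against 6.71 to 7.21. The B cell genes of that pool went both ways. Blk read 8.53, the highest of the 8 arrays, whereas Cd79b (8.37) and Vpreb3 (5.96) read the lowest of the 8. Only 3 of the 7 B cell genes measured had a mean at or above the dim level, and Vpreb3 (mean 6.38) lay under it. The other B cell genes measured were neither highest nor lowest there. Macrophage and monocyte markers (4 of 13 measured) had a mean level of 7.01 to 7.69 against 7.26 to 7.36, neutrophil and granulocyte markers (5 of 9) 6.25 to 6.53 against 6.40 to 6.55, stroma and endothelium markers (5 of 12) 6.57 to 6.77 against 6.67 to 6.83, and red cell and platelet markers (2 of 10) 6.97 to 7.24 against 6.84 to 7.19. In these lists, in the same order, 3 of 4, 1 of 5, 1 of 5 and 1 of 2 genes had a mean at or above the dim level. Dendritic cell and CD8 T cell or NK cell lists had 1 measured gene each, Batf3 (difference 0.28) and Itga2 (0.23). The part of such cells in the differences of the division genes was not tested.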

How the data were processed

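RNA of 8 pools was amplified and hybridised to Affymetrix arrays. The authors deposited log2 values per probe set. Per the submitters' processing notes, RMA, Partek and Affymetrix Expression Console were used, without versions. Of 16378 probe sets, 7358 were paired with 1 gene, 456 with several and 8564 with none, and only the first were used. Where a gene had several, the one with the highest mean was kept, which left 6986 genes. Differences (Il10-/- minus Il10+/+) were tested with limma 3.58.1 in R 4.3.3 (lmFit and eBayes, default settings), with Benjamini-Hochberg adjustment over all 6986 genes and a threshold of 0.05. The steps were tested on simulated data. Single genes were also tested by exact two-sided permutation over the 70 assignments of 4 and 4 arrays, whose smallest p is 0.0286.

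The genes, their classes and the lists were chosen with earlier results of these data known. Array values are given for the 8 mitotic and 5 replication genes with the smallest unadjusted p, the 2 of each class nearest 0 and the most negative of each class. Array values of Mcm6, Espl1 and single readings of other genes were added after their values were seen. Of the other cell cycle genes, those at an unadjusted p under 0.05 and the 2 with the largest difference in each direction per list are named, and Mcm3 was added. Il10-/- and Il10+/+ arrays carry the same replicate numbers, but same-numbered arrays did not deviate together (correlations from -0.321 to 0.053), so the numbers were not taken as pairs. Nothing says that pools of a group came from separate litters or days, so p-values measure the spread between these pools. The number of arrays limits the precision. Alternatives were other array scalings, a filter on dim genes, the mean of probe sets, trend and robust eBayes, array weights, a replicate block and arrays left out. Promoter windows are from RefSeq (GRCm38.p6), and 7310 probe sets were matched to it by Entrez identifier.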

Additional observations from a re-analysis of the deposited data

Results flagged for a closer look

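The mitotic score of Il10+/+ replicate 2, 0.198, was far above those of the other 3 pools of its group, which lay at -0.325, -0.330 and -0.333. The gap was 0.985 of the group's range, past Dixon's critical value for 4 values. Its B cell, germinal centre B cell and T cell marker levels were 7.03, 7.05 and 11.03, and its part in the group difference is given by the values without it.

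Troap read 7.29 in Il10+/+ replicate 1, under the 7.55 to 7.57 of the other 3 pools, with a gap of 0.911 of the range. In all, 42 groups of 4 values were checked and 2 were marked. Chance marks about 1 in 20.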

How the results depend on the processing

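No gene of the 45 passed the adjusted threshold of limma in any of the 17 alternative settings. The count higher at an unadjusted p under 0.05, 12 with all arrays, was 10 to 31 with 1 array left out, and 31 without Il10+/+ replicate 2. The share of all genes was 3.19% with all arrays and 2.56% to 4.37% with 1 array left out. The count higher without overlap was 3 with all arrays, against 1.83% of all genes, and 3 to 14 with 1 array left out. Without Il10+/+ replicate 2 it was 14, against 3.91% of all genes. It was 5 under quantile normalization and 5 under median and interquartile scaling, where the share of all genes was not counted. With the replicate number as a block, 15 genes were higher at an unadjusted p under 0.05, against 2.89% of all genes. The smallest adjusted p of limma was then 0.721, and the block changed no call of a member. With 1 array left out, the median difference ranged from 0.270 to 0.573 over mitotic genes, from 0.195 to 0.394 over replication genes and from 0.247 to 0.477 over both. Under every setting run, the mitotic median was above the replication median.

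The sign of Timeless turned under quantile normalization (0.0049), array weights (0.0068) and without both narrow arrays, Il10-/- replicate 2 and Il10+/+ replicate 4 (0.0248), and ranged from -0.0252 to 0.0461 with 1 array left out. The sign of Troap turned under array weights (-0.0087) and without both narrow arrays (-0.0007), and ranged from -0.0180 to 0.184 with 1 array left out. The cause was not tested. No other named gene turned. Detection limits remain: 4 of the 45 genes lay under the dim level, and 4 pools per group leave differences of single genes with an SE of 0.095 to 0.389.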

Other observations

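Of the 45 genes, 8 lie on chromosome 1, the chromosome of Il10. Of these 8, the 2 nearest to Il10 were Mcm6 (-0.23), with 16 tested genes between them, and Ube2t (-0.30), with 63 between them. The other 6, Kif14, Aspm, Nuf2, Cenpf, Dtl and Nek2, had 93 to 509 tested genes between them and Il10 and differences of 0.22 to 0.47. The remaining genes with a negative difference lie elsewhere, Timeless and Cdk2 on chromosome 10 and Tk1 on chromosome 11. The part of position was not tested.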
